A study of Arabidopsis with 12 samples.

Results

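The response of wild-type Arabidopsis thaliana seedlings to abscisic acid (ABA) was read from a single deposited table of expression values, as the ABA-treated wild type (WT-ABA) against the untreated wild type (WT-CON). The table gives 1 value per gene and group, in FPKM (fragment counts scaled for transcript length and for sequencing depth), for groups of 3 libraries each. Genes with at least 1 FPKM in either wild-type group were taken as measured, which kept 20094 of the 33559 genes listed. Both groups were whole Col-0 seedlings at 14 days of age. WT-ABA had received ABA, given in the labels as 50 micromole for 6 h, and WT-CON had not. The remaining 2 of the 4 groups (12 libraries in all) were seedlings of aph-1, a line with a T-DNA insertion in the promoter of the APH gene, with the same treatment (aph1-ABA) and without it (aph1-CON). They share no library with the wild type and are set beside it as a separate measurement of the same treatment in another genotype. The paper reports that aph mutants are insensitive to ABA in growth after germination. It also reports weaker induction of several ABA-inducible genes in aph-1. The aph-1 values are therefore those of an ABA-response mutant and not a repeat of the wild-type response.

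ABA is the plant hormone of drought, salt and seed maturation. Receptors of the PYR/PYL family bind it and then inhibit clade A protein phosphatases (PP2Cs), which releases SnRK2 protein kinases to phosphorylate transcription factors and ion channels. In vegetative tissue the hormone is known to close stomata, to slow growth and to switch on protective genes that are otherwise used in the drying seed.

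Change is given as a log2 ratio, log2((WT-ABA + 0.1)/(WT-CON + 0.1)), and a gene was called higher or lower where this ratio reached 2-fold. Folds computed this way understate the change of genes near 0.1 FPKM. Because each group is a single pooled value, the spread between libraries is unknown, no test could be run, and every difference given here is between pooled values without a replicate check. The values come from whole seedlings, so that fewer cells of a type and less RNA per cell cannot be told apart.

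At the 2-fold threshold, lower calls slightly outnumbered higher ones after ABA, while the larger changes were mostly rises. Higher calls were the more numerous with a minimum of 5 FPKM, at 2018 against 1837. In the wild type 2361 measured genes (11.7%) were higher after ABA and 2608 (13.0%) were lower, while 15125 (75.3%) were neither. The median log2 ratio over all measured genes was 0.00. At higher thresholds the balance turned, with 931 genes at least 4-fold higher against 798 lower, 384 against 197 at 10-fold and 51 against 13 at 64-fold. The higher genes had a median of 30.0 FPKM in the group where they were higher, and the lower genes 12.6 FPKM. By summed FPKM, the higher genes went from 5.66% of the total to 27.9%, and the lower genes from 21.5% to 7.36%. In the aph-1 libraries, 11.9% of the same measured genes were higher and 10.7% were lower. Of the wild-type calls, 2094 higher genes (88.7%, or 87.5% of the 2394 in aph-1) and 1885 lower genes (72.3%, or 88.0% of the 2143 in aph-1) were called the same way in aph-1, and 2 and 5 were called the opposite way.

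**Figure D1:**
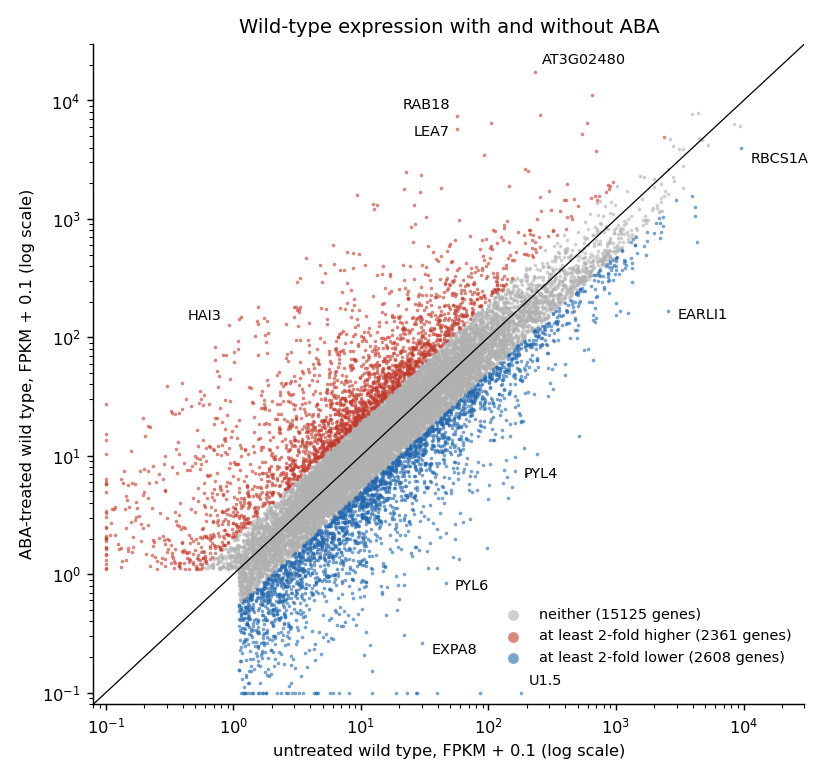
Expression of the 20094 measured genes in untreated (x axis) and ABA-treated (y axis) wild-type seedlings, in FPKM with 0.1 added, on log scales; each point is a gene and the line marks equal values. The 2361 higher genes (red) reach farther from the line than the 2608 lower genes (blue), and the points along the bottom and left edges are genes listed at 0 in a group.

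The share of genes called depended on their level. Among the 3926 genes whose higher group was at 1 to 5 FPKM, 19.6% were lower and 8.74% were higher. Among the 6670 genes at 20 to 100 FPKM, 9.69% were lower and 13.7% higher. The 180 genes with at least 1000 FPKM were called most often, with 47 higher and 42 lower. A class made of weakly expressed genes is therefore read against the share for its level.

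Genes that mark shoot, root and stomatal cells were set beside these counts. The label "whole seedling" fits the presence of both shoot and root markers: RBCS1A (AT1G67090), a leaf gene, was at 9613 FPKM in WT-CON and PYK10 (AT3G09260), a root gene, at 2280 FPKM. Of 9 shoot markers, all of them Rubisco, Rubisco activase or antenna genes, 5 were lower and 0 higher, with a median log2 ratio of −1.28 and a summed level that went from 29189 to 13046 FPKM. Of 17 measured root markers, 2 were lower, 1 was higher and 14 were neither, with a median of −0.56. Their summed level went from 2539 to 1337 FPKM, but PYK10 alone held 2280 of the 2539 FPKM. Of 10 guard cell and stomatal lineage markers, 4 were lower, among them MYB60 (AT1G08810), a guard cell transcription factor gene, at 20.4 FPKM untreated and 5.09 FPKM after ABA. A single flower marker of 10 was measured, SEP3 (AT1G24260), at 37.7 and 11.0 FPKM. Their part in the class values was not tested.

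Across 89 gene classes, drawn up from descriptions and pathway membership, 28 had a median log2 ratio below −0.5 and 14 a median above 0.5. All 42 had a median of the same sign in aph-1. The lists were chosen with earlier results of these data known, and some genes are in several classes. These counts are therefore neither an unbiased survey nor an independent check. The medians of the 89 classes ranged from −2.63, for aliphatic glucosinolate synthesis, to 5.41, for seed storage and oil body proteins, which are not in the plot. That highest median rests on 6 measured genes of 18, and it was 0.23 with no filter on low values. Most classes in the plot of gene classes hold genes on both sides of 0.

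**Figure D2:**
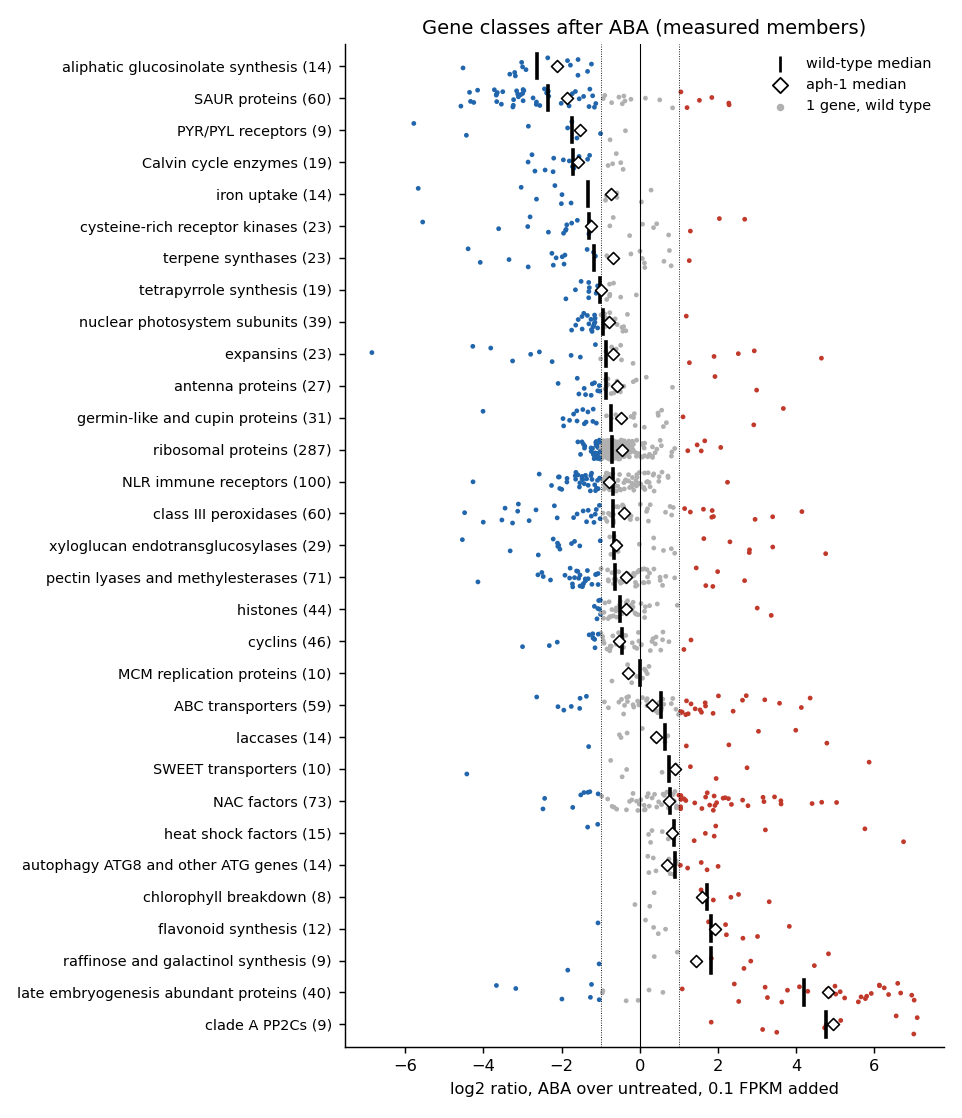
Log2 ratio of ABA-treated over untreated wild type (0.1 FPKM added) for the measured members of 31 gene classes, with the number of measured members in brackets. Points are genes (blue at least 2-fold lower, red at least 2-fold higher), bars are wild-type medians and open diamonds are medians in the aph-1 libraries; the diamonds lie on the same side of 0 as the bars for every class with a bar beyond 0.5.

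Genes of ABA perception moved in opposite directions. Of the 14 PYR/PYL receptor genes, 9 were measured, and 7 of these were lower and none was higher, with a median of −1.74. Besides PYL6 (AT2G40330), PYL4 (AT2G38310) and PYL5 (AT5G05440), the fall included genes at high levels. PYR1, chosen after its values were seen, was at 261 FPKM untreated and 85.6 FPKM after ABA, and the receptor genes together went from 819 to 223 FPKM. In aph-1, 6 of the 9 were lower, with a median of −1.52. The 9 clade A PP2C genes, which encode the phosphatases these receptors inhibit, were all higher, with a median of 4.77 and a summed level that went from 103 to 1852 FPKM. AHG1 (AT5G51760), a PP2C of the seed, rose from 0.134 to 8.13 FPKM. The 50 measured PP2C genes outside clade A had a median of 0.14, with 11 higher and 2 lower.

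Genes of photosynthetic carbon fixation were lower throughout. Of 19 genes for Calvin cycle enzymes and their regulators, which fix carbon dioxide in the chloroplast, 14 were lower, 0 were higher and all 19 had a ratio below 0, with a median of −1.70. Together they went from 29447 FPKM, 2.69% of the wild-type total, to 9892 FPKM, 0.884%. RBCS2B (AT5G38420), a gene for the small subunit of Rubisco, fell from 4307 to 638 FPKM. RBCS1B (AT5G38430) fell from 564 to 77.9 FPKM, RBCS3B (AT5G38410) from 4177 to 1267 FPKM and RBCS1A (AT1G67090) from 9613 to 3952 FPKM. These Rubisco genes are near-identical copies, and the way reads were shared among them is not known. The same direction held outside that family. CP12-2 (AT3G62410), a small regulator that binds Calvin cycle enzymes, fell from 996 to 155 FPKM, FBA1 (AT2G21330), an aldolase, from 295 to 55.1 FPKM, and RCA (AT2G39730), the Rubisco activase, from 1338 to 291 FPKM. The 5 genes that stayed within 2-fold were between −0.43 and −0.81 on the log2 scale. In aph-1, 15 of the 19 were lower, with a median of −1.59.

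Genes of the light reactions had medians closer to 0. Of 39 measured nuclear genes for photosystem subunits and assembly factors, 18 were lower and 1 was higher, with a median of −0.94, and their sum went from 49204 to 26924 FPKM (4.50% to 2.41% of the total). In aph-1 the median was −0.78, but 5 genes were lower there. PSBQA (AT4G21280), a subunit of the oxygen-evolving complex of photosystem II, fell from 1311 to 471 FPKM, and PSB27 (AT1G03600), a photosystem II repair factor, from 262 to 88.0 FPKM. PSBR (AT1G79040), among the 15 genes that lost the most FPKM, stayed within 2-fold at 9408 and 6082 FPKM. DRT112 (AT1G20340), a plastocyanin that carries electrons between the photosystems, fell from 4169 to 1059 FPKM. Among 27 antenna genes, whose proteins bind chlorophyll and pass on its excitation, 11 were lower and 2 higher, with a median of −0.86. LHCB5 (AT4G10340) fell from 2320 to 867 FPKM and LHCB3 (AT5G54270) from 1207 to 410 FPKM. The 2 that rose belong to the early light-induced proteins, which protect against excess light. ELIP1 (AT3G22840) was at 27.8 FPKM untreated and 221 FPKM after ABA, and ELIP2 (AT4G14690) at 7.50 and 28.7 FPKM. The 60 measured genes of the plastid genome had a median of 0.20, with 2 higher and 4 lower. These were weakly represented, as 73 of the 133 listed were not measured and 17 of the 60 were at 1 to 5 FPKM. The sum of all 133 was 518 FPKM in WT-CON, or 0.0474% of the total.

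Chlorophyll synthesis and breakdown moved in opposite directions. All 19 measured genes of tetrapyrrole synthesis, the route to chlorophyll and heme, had a ratio below 0 and 10 were lower, with a median of −1.01. CHLM (AT4G25080), a methyltransferase of the magnesium branch, fell from 239 to 64.6 FPKM, and CHLI2 (AT5G45930), a magnesium chelatase subunit, from 93.3 to 29.8 FPKM. GSA2 (AT3G48730), an early enzyme of the route, fell from 179 to 63.4 FPKM. Of 8 genes for chlorophyll breakdown, 5 were higher and 0 lower, with a median of 1.72, against 1.6 in the aph-1 libraries, and their sum went from 365 to 1066 FPKM. NYE1 (AT4G22920), which starts breakdown by removing magnesium, rose from 13.8 to 69.9 FPKM, and its paralogue AT4G11910 (NYE2) from 3.39 to 34.5 FPKM. PPH (AT5G13800), the pheophytinase, rose from 40.2 to 148 FPKM, and ACD1 (AT3G44880), the oxygenase that opens the ring, from 51.4 to 296 FPKM. The 3 members that were not called were HCAR, NOL and ACD2, the last of these at −0.12 on the log2 scale.

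**Figure D3:**
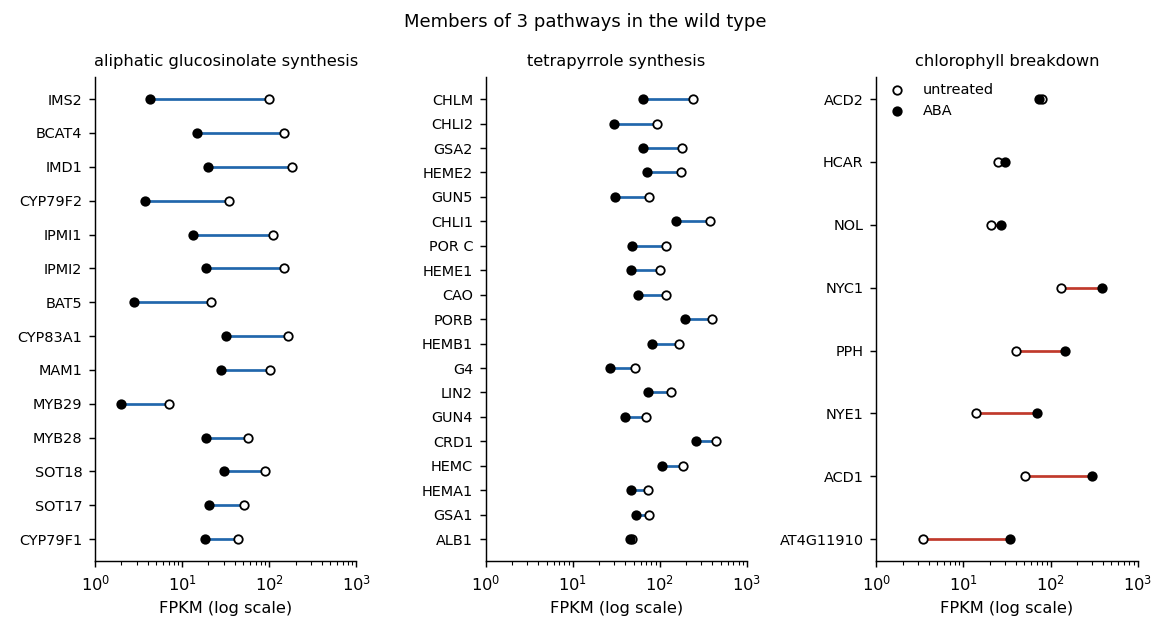
FPKM (log scale) of each measured member of aliphatic glucosinolate synthesis (14 genes), tetrapyrrole synthesis (19 genes) and chlorophyll breakdown (8 genes) in untreated (open) and ABA-treated (filled) wild-type seedlings, 1 pooled value per group. In the first 2 pathways every filled point lies to the left of its open point, and in the third 7 of 8 lie to the right.

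Ribosomal protein genes were lower by a small and even margin. Of 287 measured nuclear genes, 263 had a ratio below 0, with a median of −0.71 and quartiles of −0.88 and −0.42, and 39 were at least 2-fold lower. That count is 13.6% of the class, near the 13.0% of all measured genes. Their sum went from 104471 to 61022 FPKM, or from 9.56% to 5.45% of the wild-type total, the largest loss in summed FPKM of any class. PSRP3/1 (AT1G68590), a plastid ribosomal protein, fell from 1118 to 373 FPKM and SSR16 (AT4G34620) from 1148 to 423 FPKM. In aph-1 the median was −0.46 and 5 genes were lower. Of 44 measured histone genes, 7 were lower and 2 higher, with a median of −0.51. The lower share, 15.9%, is near the 13.0% of all measured genes. In aph-1, 0 histone genes were lower and 3 were higher. The exception among linker histones was HIS1-3 (AT2G18050), a drought-responsive H1, which rose from 9.87 to 102 FPKM. Of 46 measured cyclin genes, which drive the cell cycle, 10 (21.7%) were lower and 2 higher, with a median of −0.46. In aph-1, 11 cyclin genes were lower. The 10 measured MCM genes, which encode replication factors, had a median of 0.00 with 0 calls in either direction, and tubulin genes had 1 lower call among 19.

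**Figure D4:**
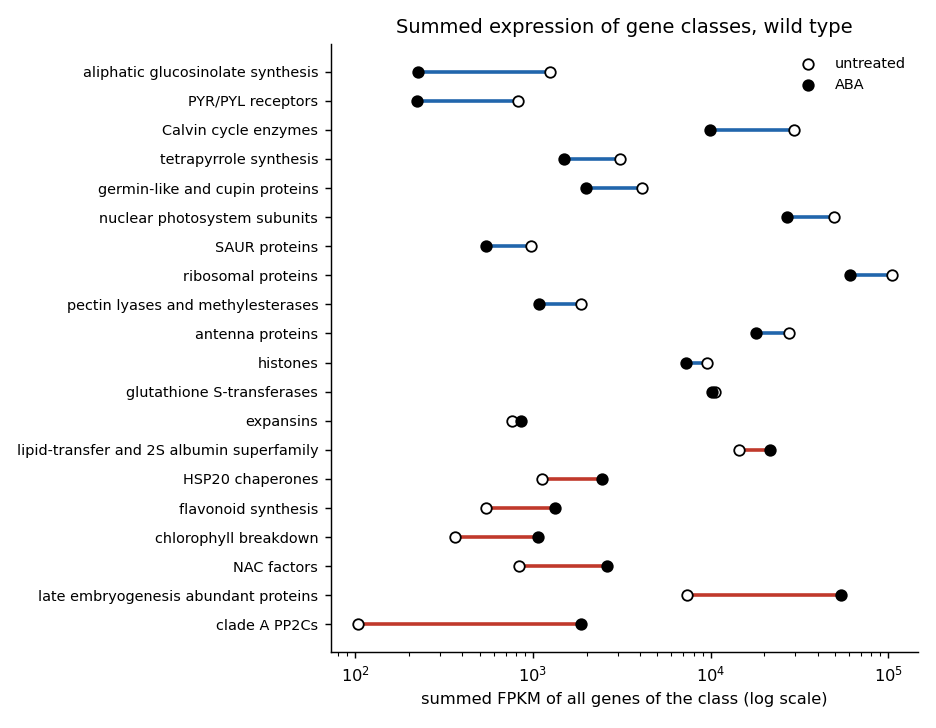
Summed FPKM of all genes of 20 classes in untreated (open) and ABA-treated (filled) wild-type seedlings, on a log scale, ordered by the ratio of the sums. Aliphatic glucosinolate synthesis went from 1251 to 226 FPKM and ribosomal proteins from 104471 to 61022 FPKM, while late embryogenesis abundant proteins went from 7356 to 53856 FPKM and clade A PP2Cs from 103 to 1852 FPKM.

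Of the 89 classes, aliphatic glucosinolate synthesis had the lowest median. Aliphatic glucosinolates are sulfur-containing defence compounds made from methionine by chain elongation, core formation and side-chain changes. All 14 measured genes were lower, with a median of −2.63 and a range from −4.52 to −1.23. The 15th gene of the list, MYB76, was not measured. Among chain elongation genes, IMS2 (AT5G23020, also called MAM3) fell from 98.7 to 4.21 FPKM, BCAT4 (AT3G19710) from 147 to 14.6 FPKM and IMD1 (AT5G14200) from 181 to 19.6 FPKM. CYP79F2 (AT1G16400), which starts the core structure, fell from 34.6 to 3.73 FPKM, and its near-identical neighbour CYP79F1 (AT1G16410) from 43.6 to 18.5 FPKM. The regulators MYB28, at 56.4 and 18.8 FPKM, and MYB29, at 7.09 and 2.01 FPKM, were lower as well. In aph-1, 12 of the 14 were lower, with a median of −2.11. For the indole glucosinolates, which are made from tryptophan, 2 of 9 genes were lower, SUR1 (AT2G20610) and MYB51 (AT1G18570), with a median of −0.72, against −0.06 in the aph-1 libraries. SUR1 also serves the aliphatic route. CYP79B2, at 36.4 and 44.8 FPKM, and CYP79B3, at 22.1 and 19.5 FPKM, commit tryptophan to this route and stayed within 2-fold. Of 9 genes of sulfate assimilation, which supplies the sulfur, 2 were lower, with a median of −0.29. APS1 (AT3G22890), an ATP sulfurylase, fell from 280 to 123 FPKM.

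Terpene and triterpene genes fell as well, in part as neighbouring genes. Of 23 measured terpene synthase genes of 51 in the list, 13 were lower and 1 was higher, with a median of −1.18. In aph-1, 11 were lower and the median was −0.68. Of the 23, 14 were at 1 to 5 FPKM, and with a minimum of 5 FPKM the median was −0.23. THAS1 (AT5G48010), which makes the triterpene thalianol in roots, fell from 54.9 to 2.53 FPKM. The genes beside it on chromosome 5 act in the same pathway and fell with it. CYP708A2 (AT5G48000) went from 81.5 to 7.15 FPKM, CYP705A5 (AT5G47990) from 102 to 8.36 FPKM and the acyltransferase gene AT5G47980 from 14.6 to 0.611 FPKM. All 4 were also lower in aph-1. MRN1 (AT5G42600), the marneral synthase, was the exception and rose from 15.1 to 36.4 FPKM. Cytochrome P450 genes as a whole moved both ways, with 38 of 161 higher and 54 lower and a median of −0.13.

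Genes called in the same direction also stood next to each other elsewhere. With 19969 measured genes placed in chromosomal order, 41 runs of at least 4 neighbours were called in 1 direction, 30 lower runs with 148 genes and 11 higher runs with 46 genes. In 12 of the lower runs every gene was also lower in aph-1. Many runs hold gene copies of a family, whose reads may be shared, and no run count expected by chance was computed. The longest run, 9 lower genes on chromosome 4 from AT4G15270 to AT4G15400, holds the triterpene synthase gene PEN1 (AT4G15340), 4 P450 genes and 2 acyltransferase genes, and 8 of the 9 were lower in aph-1. Within it AT4G15390 fell from 198 to 6.82 FPKM and CYP702A5 (AT4G15393) from 33.8 to 1.03 FPKM. A run of 7 on chromosome 5 holds 6 germin-like and cupin genes beside CRR7 (AT5G39210), and runs of 6 on chromosome 4 hold thioredoxin superfamily genes (AT4G15660 to AT4G15700, with AT4G15740) and lipid-transfer family genes. In the lipid-transfer run, EARLI1 (AT4G12480) fell from 2573 to 166 FPKM and AZI1 (AT4G12470), which acts in systemic immunity, from 2187 to 1015 FPKM. The run AOC1, AOC2 and AOC3 with AT3G25790 on chromosome 3 holds allene oxide cyclases of jasmonate synthesis, of which AOC2 (AT3G25770) fell from 2258 to 781 FPKM. The longest higher run, of 6 genes on chromosome 2, holds 5 glutathione S-transferases, GSTU1 to GSTU5, with AT2G29500, a small heat shock protein gene. GSTU4 (AT2G29460) rose from 19.1 to 121 FPKM. A higher run on chromosome 5 joins MYB96 (AT5G62470), an ABA-related factor of wax synthesis that rose from 10.5 to 97.4 FPKM, GSTU9 and HVA22B.

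Auxin-responsive growth genes were mostly lower. SAUR genes encode small proteins that auxin induces and that promote cell expansion. Of 60 measured members of 77, 43 were lower and 6 higher, with a median of −2.33 and quartiles of −3.17 and −0.85. In aph-1, 38 were lower and 5 higher, with a median of −1.86. AT1G29430 fell from 19.3 to 0.716 FPKM and AT4G38825 from 5.45 to 0.172 FPKM. Of the 60 genes, 18 were at 1 to 5 FPKM, and several stand in runs of near-identical copies. The members that rose include AT3G12955, at 3.70 FPKM untreated and 18.4 FPKM after ABA, and AT4G12410, at 2.67 and 13.3 FPKM. The Aux/IAA genes, which encode auxin-induced repressors, had a median of −0.59, with 6 of 23 lower and 1 higher. With a minimum of 5 FPKM their median was −0.29. IAA19 (AT3G15540), which acts in elongation growth, fell from 19.0 to 3.54 FPKM. Of 9 measured type-A response regulator genes, which are induced by cytokinin, 3 were lower, such as RR5 (AT3G48100) at 12.3 and 5.11 FPKM. GASA genes, small proteins of gibberellin-related growth, were split, with 5 of 11 lower and 3 higher. GASA6 (AT1G74670) fell from 139 to 6.45 FPKM whereas GASA3 (AT4G09600) rose from 0.989 to 92.3 FPKM. Of 4 measured gibberellin 2-oxidase genes, whose enzymes inactivate gibberellin, 3 were higher. GA2OX6 (AT1G02400) rose from 6.32 to 37.7 FPKM. Among 100 bHLH transcription factor genes, 24 were lower and 6 higher, with falls in the growth regulators HBI1 (AT2G18300), from 28.8 to 2.72 FPKM, and PRE5 (AT3G28857), from 3.53 to 0.116 FPKM.

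Cell wall families held large changes in both directions around a median below 0. Expansins loosen walls, xyloglucan endotransglucosylases (XTHs) cut and rejoin xyloglucan, and pectin lyases and methylesterases act on pectin. Of 23 measured expansin genes, 10 were lower and 5 higher, with a median of −0.86, while their sum went up from 763 to 854 FPKM. EXPA17 (AT4G01630) fell from 18.6 to 0.872 FPKM and EXPB3 (AT4G28250) from 46.0 to 4.74 FPKM. EXPA16 (AT3G55500) rose from 7.68 to 194 FPKM and EXLA1 (AT3G45970) from 19.5 to 149 FPKM. Of 29 measured XTH genes, 12 were lower and 6 higher, with a median of −0.66. XTH31 (AT3G44990) fell from 238 to 10.2 FPKM and XTH11 (AT3G48580) rose from 3.36 to 36.4 FPKM. Of 71 measured pectin genes, 28 were lower and 5 higher, with a median of −0.62. AT5G63180, a pectin lyase-like gene, fell from 100.4 to 5.61 FPKM and PME3 (AT3G14310), a pectin methylesterase, from 329 to 59.5 FPKM. Among class III peroxidases, secreted enzymes that stiffen walls and oxidise phenolics, 22 of 60 were lower and 9 higher. Prx37 (AT4G08770) fell from 131 to 5.77 FPKM. The 14 measured laccase genes, whose enzymes polymerise lignin, ran the other way, with 5 higher and 1 lower and a median of 0.64. LAC5 (AT2G40370) rose from 2.86 to 46.9 FPKM.

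Immune receptor genes had more lower than higher calls, and many were weakly expressed. Of 100 measured genes for NLR receptors, intracellular sensors of pathogen effectors, 32 were lower and 1 was higher, with a median of −0.68. As 61 of the 100 were at 1 to 5 FPKM, the count stands beside 19.6% lower among all genes at that level. In aph-1, 41 were lower and the median was −0.79. AT3G04210, of the TIR-NBS class, fell from 34.9 to 1.73 FPKM, and RPS2 (AT4G26090), the receptor for the bacterial effector AvrRpt2, rose from 1.96 to 9.65 FPKM. Cysteine-rich receptor kinases (CRKs), surface kinases linked to defence and oxidative stress, had 13 of 23 lower and 3 higher, with a median of −1.30. Of the 23, 10 were at 1 to 5 FPKM, and with 1 FPKM added the median was −0.98. CRK30 (AT4G11460) fell from 11.7 to 0.151 FPKM and CRK40 (AT4G04570) from 21.5 to 2.87 FPKM. CRK18, CRK19, CRK21 and CRK22 form a lower run on chromosome 4. Leucine-rich repeat kinases, a larger family, had 22 of 133 lower and 2 higher, with a median of −0.25, and the lower share was 16.5%, beside 13.0% of all measured genes, with 40 of the 133 at 1 to 5 FPKM. Germin-like and cupin genes, which encode secreted proteins, had 14 of 31 lower and 3 higher, and GER3 (AT5G20630) fell from 1725 to 497 FPKM. Of 22 genes described as mannose-binding lectins, 14 were lower and 2 higher, with a median of −1.38. AT1G52060 fell from 68.4 to 9.48 FPKM.

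Iron uptake genes were lower in the wild type, with fewer such calls in aph-1. Of 14 measured genes for iron acquisition in the root, 7 were lower and 0 higher, with a median of −1.32, against 4 lower and a median of −0.74 in aph-1. The wild-type median was −0.86 with a minimum of 5 FPKM and −1.02 with 1 FPKM added. The aph-1 median was not recomputed under these settings. Besides the transporter gene IRT1 (AT4G19690), the fall took in NAS4 (AT1G56430), which makes the metal chelator nicotianamine, at 33.0 and 5.20 FPKM. The regulators BHLH100 (AT2G41240), at 30.7 and 3.67 FPKM, and bHLH39 (AT3G56980), at 13.5 and 2.92 FPKM, were lower too. In aph-1 the values were 34.1 and 17.4 FPKM for BHLH100 and 12.7 and 7.72 FPKM for bHLH39. Their paralogue bHLH38, chosen after its values were seen, stayed within 2-fold in the wild type at 18.4 and 12.3 FPKM. Of 24 measured aquaporin genes, for water channels, 5 were lower and 2 higher. PIP2B (AT2G37170) fell from 222 to 89.9 FPKM and PIP1;4 (AT4G00430) rose from 87.0 to 189 FPKM. PHT1;1 (AT5G43350), a phosphate transporter gene of the root, fell from 57.6 to 11.5 FPKM in a class with 3 of 18 lower and 4 higher.

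Genes were also grouped by shared description alone, which gave 206 sets of at least 10 measured genes. Many of these genes are in the classes above as well, so the sets are not a separate measurement. Lower calls outnumbered higher ones in 91 sets, and the reverse held in 79. A median below −0.5 was found for 28 of the 206 sets and above 0.5 for 9. After the SAUR genes and the terpenoid cyclases, the lowest were DUF642 proteins, cell wall proteins of unknown function, with 8 of 10 lower and a median of −1.51. DGR2 (AT5G25460) fell from 206 to 34.3 FPKM. Next came the CAP superfamily of PR1-related secreted proteins, with 7 of 11 lower and a median of −1.43 that was −0.62 in aph-1. AT2G19970 fell from 73.5 to 7.28 FPKM. C1 domain proteins had 20 of 49 lower and 1 higher, but 43 of the 49 were at 1 to 5 FPKM. Among TRAF-like genes 7 of 23 were lower and 3 higher, and AT5G26280 fell from 396 to 59.1 FPKM.

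Among higher classes, late embryogenesis abundant (LEA) proteins, hydrophilic protectants of dry seeds that include the dehydrins, took up the most FPKM. Of 40 measured genes, 28 were higher and 6 lower, with a median of 4.19. Their sum went from 7356 to 53856 FPKM, or from 0.673% to 4.81% of the wild-type total. AT3G02480 gained more FPKM than any other gene in the table, from 230 to 17525 FPKM. AT3G17520 rose from 12.5 to 1221 FPKM and AT3G15670 from 3.64 to 464 FPKM. The class is not uniform, as AT5G60520 fell from 10.9 to 0.766 FPKM and AT1G54890 from 13.1 to 1.36 FPKM, both described as LEA-related. Of 18 genes for seed storage and oil body proteins, 6 were measured, of which 5 were higher and 1 lower, with a median of 5.41. A gene could pass the filter through its ABA level alone, and with no filter the median was 0.23. GEA6 (AT2G40170), an Em protein of the embryo, rose from 1.75 to 137 FPKM, and RD20 (AT2G33380), a caleosin of oil bodies, from 29.2 to 1685 FPKM. OLEO4 (AT3G27660), an oleosin, fell from 4.35 to 0.767 FPKM. The 15 genes that gained the most together went from 14274 to 100171 FPKM, which is 25.5% of all FPKM gained.

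The largest rises rest on low untreated values, and these had a floor in the wild type. For the 2088 wild-type genes that reached 100 FPKM with ABA, the lowest untreated level was 0.579% of the ABA level. In all 11 genes were under 1% and none was under 0.5%. In aph-1, 44 of 2077 such genes were under 1% and 36 under 0.5%, down to 0.0439%. For LTI65 (AT5G52300), the measured gene above 0 in both groups with the largest wild-type rise, the log2 ratio was 7.42 with an untreated level of 9.19 FPKM. LTI65 in aph1-CON was at 0.708 FPKM. Whether reads of ABA-treated seedlings entered the untreated wild-type values was not tested. The paper reports that many genes strongly induced by ABA had reduced expression in aph-1 without treatment. With 1 pooled value per group these cannot be told apart. If such reads did enter, untreated levels near the floor, and the rises computed from them, would not be those of the seedlings. That would touch LTI65, RAB18 (AT5G66400), HAI3 (AT2G29380) and other strongly induced genes. With 1% of the ABA value taken off each untreated value, the median was 4.47 for LEA proteins, 5.22 for clade A PP2Cs and 6.15 for seed storage and oil body genes. Such a subtraction can only raise a ratio, so the direction of these shifts was fixed. Untreated values under 1% of the ABA value were set to 0, and their ratios then rest on the added 0.1 FPKM.

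**Figure D5:**
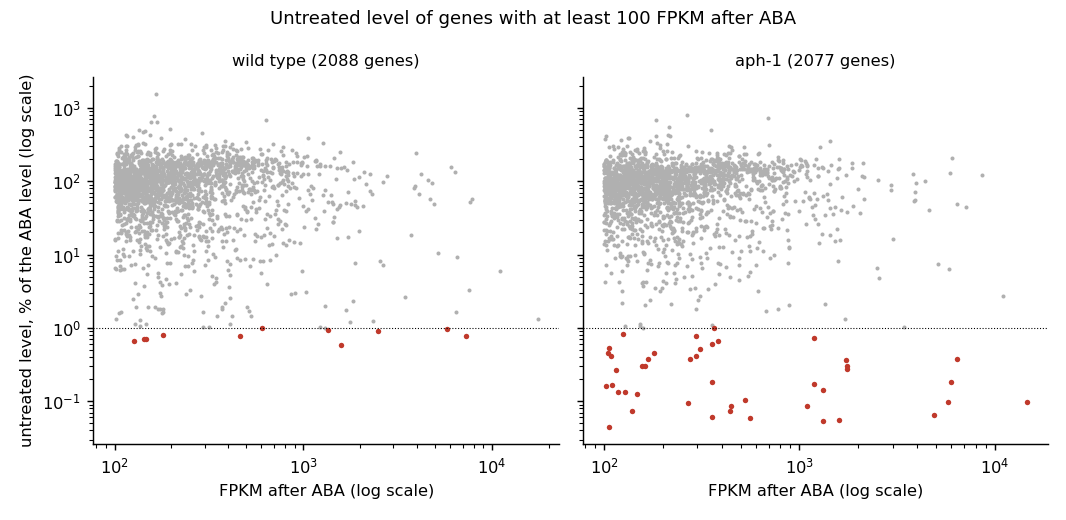
Untreated level as a percentage of the ABA level (log scale) against the ABA level in FPKM (log scale), for genes that reached 100 FPKM with ABA, 2088 in wild-type and 2077 in aph-1 seedlings; red points lie under 1%. The wild-type points stop at 0.579%, and those of aph-1 reach 0.0439%.

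Protective sugar, pigment and chaperone genes rose in part. Galactinol synthases start the raffinose sugars, and GolS4 (AT1G60470) rose from 3.25 to 94.9 FPKM and GolS2 (AT1G56600) from 3.82 to 86.4 FPKM, while GolS3 (AT1G09350) fell from 1.13 to 0.244 FPKM. Of 9 measured genes of this class, 5 were higher and 2 lower, with a median of 1.83. Of 12 measured flavonoid genes, 7 were higher and 1 lower, with a median of 1.82, against 1.91 in the aph-1 libraries. The anthocyanin regulators MYB90 (AT1G66390), TT8 (AT4G09820) and PAP1 (AT1G56650) rose from 17.2 to 244 FPKM, from 2.42 to 20.2 FPKM and from 11.3 to 70.9 FPKM. DFR (AT5G42800), a late enzyme of anthocyanin synthesis, rose from 33.6 to 156 FPKM, and MYB111 (AT5G49330), a regulator of the flavonol branch, fell from 24.3 to 11.5 FPKM. Small heat shock proteins (HSP20), which hold unfolded proteins, had 14 of 35 higher and 1 lower with a median of 0.44. HSP17.4 (AT3G46230) rose from 5.13 to 350 FPKM. Of 15 measured heat shock factor genes, 7 were higher and 2 lower. HSFA6B (AT3G22830) rose from 3.24 to 180 FPKM, and HSFA3 (AT5G03720) fell from 4.16 to 1.59 FPKM.

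Regulator, transporter and turnover genes included higher and mixed classes. Of 73 measured NAC transcription factor genes, 30 were higher and 8 lower, with a median of 0.78. RD26 (AT4G27410), a NAC factor of the drought response, rose from 13.3 to 338 FPKM, and NAC019 (AT1G52890) from 5.24 to 175 FPKM. Among homeobox genes, where 10 of 62 were higher and 12 lower, HB-7 (AT2G46680) rose from 26.5 to 899 FPKM and HAT1 (AT4G17460), a homeodomain-leucine zipper factor, fell from 38.1 to 6.57 FPKM. MYB, WRKY and AP2/ERF families had medians between −0.09 and 0.18, with 40 of 183, 14 of 55 and 18 of 85 higher and 32, 9 and 16 lower. Of 59 measured ABC transporter genes, 21 were higher and 7 lower, with a median of 0.53, against 20 higher, 9 lower and a median of 0.31 in aph-1. The 18 genes described as ABC-2 transporters were more one-sided, with 10 higher and 0 lower and a median of 1.43. ABCG6 (AT5G13580) and ABCG16 (AT3G55090), known for suberin and pollen wall export, rose from 4.43 to 79.3 FPKM and from 1.29 to 28.4 FPKM. Among 10 measured SWEET sugar transporters, 4 were higher and 1 lower. SWEET4 (AT3G28007) rose from 1.75 to 108 FPKM, while SWEET16 (AT3G16690), of the vacuole, fell from 21.5 to 0.911 FPKM. All 14 measured autophagy genes had a ratio above 0 and 5 were higher, with a median of 0.90, and APG9 (AT2G31260) rose from 8.98 to 29.8 FPKM. RING and U-box genes, which mostly encode ubiquitin ligases, had 48 of 289 higher and 18 lower with a median of 0.35. AIRP1 (AT4G23450) and AIRP2 (AT5G01520), ligases of the ABA response, rose from 2.61 to 33.4 FPKM and from 6.17 to 79.8 FPKM.

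Detoxifying enzyme families were split. Of 51 measured glutathione S-transferases, 15 were higher and 12 lower with a median of 0.07, while in aph-1 17 were higher and 3 lower. GSTF14 (AT1G49860) fell from 39.1 to 1.04 FPKM and GSTU25 (AT1G17180) rose from 19.8 to 144 FPKM. Of 110 UDP-glycosyltransferases, which attach sugars to hormones and metabolites, 33 were higher and 20 lower. UGT72E1 (AT3G50740) and UGT72E2 (AT5G66690), which glycosylate lignin precursors, fell from 54.8 to 1.88 FPKM and from 70.4 to 5.66 FPKM. Lipid-transfer and 2S albumin superfamily genes had 20 of 72 higher and 25 lower and a median of −0.30, although their sum went up from 14494 to 21649 FPKM. LTP4 (AT5G59310) rose from 22.3 to 2485 FPKM and AT2G37870 from 12.4 to 1349 FPKM.

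Single genes with the largest falls lay mostly outside the classes at the core of ABA signalling. With 10 FPKM or more in the higher group and a value above 0 in both, EXPA8 (AT2G40610) had the lowest ratio, at −6.85. CML30 (AT2G15680), a calmodulin-like calcium sensor gene, fell from 12.2 to 0.0536 FPKM, against 9.90 and 1.03 FPKM in aph-1. RL3 (AT4G36570), a RAD-like MYB gene, fell from 21.7 to 0.208 FPKM, and AT1G15125, a methyltransferase gene, from 97.2 to 1.55 FPKM. The 15 genes that lost the most FPKM together went from 64289 to 28675 FPKM, 11.5% of all FPKM lost, and 10 of them encode Rubisco, photosystem, antenna or plastocyanin proteins.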

How the data were processed

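The authors sequenced RNA of whole seedlings with a directional kit. Their methods name HISAT for mapping, htseq-count (HTSeq in the submitters' processing notes, with the TAIR10 genome) for counting and edgeR for calling genes. The FPKM values were made by the authors before they were deposited, and no source used here states how 3 libraries became 1 group value. That the values are FPKM follows from a cuffdiff label inside the table and from column sums of 1093170 for WT-CON and 1119240 for WT-ABA. Depth is therefore unknown. Whether counting used strand is not stated, so overlapping genes and near-identical copies (RBCS, CYP79F, LTP and KIN genes) are uncertain. The deposited table also holds the authors' own log2 ratios and yes or no calls, and these were not used.

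Log2 ratios were computed with 0.1 FPKM added, for genes with at least 1 FPKM in either wild-type group. Classes came from descriptions and from symbols, matched through RefSeq genes (assembly TAIR10.1), which hold 32815 of the 33559 identifiers and also gave gene order. The members and lists were chosen with earlier results of these data known. Named genes are the 15 with the largest ratio and the 15 with the largest FPKM change each way (ratios only where the higher group had at least 10 FPKM), up to 4 members of a class in its main direction and 2 in the other, up to 3 genes of a shared description, and genes in runs of at least 4. Other members of glucosinolate, chlorophyll, Calvin cycle and receptor genes and the markers were named after their values were seen. A guard cell marker was left out because its symbol matched a different gene, and promoters were not analysed here. Analyses were run in pandas 2.3.3 and numpy 2.4.6 under Python 3.11.15, with figures from matplotlib 3.10.9.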

Additional observations from a re-analysis of the deposited data

How the results depend on the processing

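The counts of higher and lower genes were recomputed under 8 alternatives. With a 3-fold threshold, 1322 genes were higher and 1257 lower. The other settings left both counts within 1.5 times, from 2018 to 2676 higher and from 1837 to 3224 lower. The higher share of calls lay between 45.4% and 52.3%, against 47.5% in the report. Which direction had more calls depended on the setting. Higher calls outnumbered lower ones with the 3-fold threshold, with a minimum of 5 FPKM (2018 against 1837) and with rescaling (2478 against 2444). No class median beyond 0.5 changed direction under the alternatives. Only the settings that change which genes are included, no filter and the minimum of 5 FPKM, could readily reverse such a median. Under the other settings the unchanged direction of the class medians is no check. For the called named genes a change of direction was not possible, since every setting tried keeps the sign of a 2-fold ratio. Their unchanged direction is therefore no check. Class medians moved by over 0.25 in 24 of 89 classes without the filter on low values, in 16 with a minimum of 5 FPKM and in 8 with 1 FPKM added. For LEA proteins the median was 2.74 with 1 FPKM added and 4.99 with a minimum of 5 FPKM, and for SAUR genes it was −1.58 with 1 FPKM added. Seed storage and oil body genes went to 0.23 with no filter and terpene synthases to −0.23 with a minimum of 5 FPKM. Of 462 called named genes, 34 were under 2-fold with 1 FPKM added. Rescaling without the 100 most abundant genes put the median of all genes at 0.04. Leaving out a library was not possible, since the table has no value per library. No paired analysis was possible because the columns carry no replicate. Promoter motifs were not run.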

Other observations

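Genes listed at 0 in a group were set apart, since no fold can be given for them. Of the measured genes, 28 were listed at 0 in WT-CON and 38 in WT-ABA. Of the 38, 17 were above 0 in aph1-ABA, and 7 of these had at least 1 FPKM there. Several are short RNAs. U1.5 (AT1G08115), a small nuclear RNA of splicing, was at 181 FPKM in WT-CON, listed at 0 in WT-ABA, and at 57.0 and 56.0 FPKM in untreated and treated aph-1. AT5G04790 was at 85.7 FPKM in WT-CON, listed at 0 in WT-ABA, and at 18.3 and 17.9 FPKM in aph-1. NRPB12 (AT5G41010), a small subunit of nuclear RNA polymerases, was at 27.2 FPKM in WT-CON and listed at 0 in WT-ABA, with 9.36 and 19.2 FPKM in aph-1. MIR472 (AT1G12294) was listed at 0 in every group but WT-ABA, where it was at 15 FPKM. Among the genes with at least 10 FPKM in the other group, 2 were listed at 0 in both untreated genotypes and above 0 in both after ABA: the metallothionein gene MT1B (AT5G56795), at 13.5 FPKM in WT-ABA and 10.6 FPKM in aph1-ABA, and AT2G44130, at 10.3 and 7.08 FPKM.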
